A study of Homo sapiens with 6 samples.

Results

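The serpins examined here are 6 intracellular serpins of clade B (SERPINB1, SERPINB3, SERPINB4, SERPINB6, SERPINB8 and SERPINB9) and 3 secreted or endoplasmic reticulum serpins that work on the matrix (SERPINE2, SERPINF1 and SERPINH1). These 9 genes, of 60499 gene IDs in the deposited tables, were picked by name with earlier results of the same coating comparison in view. Their coating differences are therefore a description of the genes picked and support nothing by themselves. Reads can be divided between SERPINB3 and SERPINB4, which are near-identical, and the pair was summed, which left 8 features. RNA came from the established H1 line of human embryonic stem cells, grown in Nutristem medium that was replaced every day for 4 days. Wells were coated with laminin-521 (LN-521) in 1 group and with laminin-521 plus laminin-221 (LN-521+LN-221, here the mixed coating) in the other, so laminin-521 was present in every well. There were 3 wells per coating and 1 library per well, of 20606494 to 26836727 counts in 1 sequencing batch. The wells are replicates of a single line, and p-values measure the spread between wells.

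Serpins share a fold with an exposed reactive centre loop. In the inhibitory members a target protease cuts this loop and is trapped in a covalent complex with the serpin. Clade B serpins lack a classical secretion signal and mostly protect the cell from its own or incoming proteases, whereas matrix serpins act outside the cell or during secretion: SERPINE2 holds back thrombin and plasminogen activators, and SERPINF1 and SERPINH1 no longer inhibit proteases. SERPINH1, also called HSP47, is a collagen chaperone of the endoplasmic reticulum.

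The clade B genes lie in 2 clusters (GENCODE 29, GRCh38). SERPINB1 (ENSG00000021355, chr6:2832332-2842006), SERPINB9 (ENSG00000170542, chr6:2887266-2903280) and SERPINB6 (ENSG00000124570, chr6:2948159-2972165) are neighbours on the minus strand of chromosome 6. SERPINB4 (ENSG00000206073, chr18:63637259-63644298), SERPINB3 (ENSG00000057149, chr18:63655197-63661963) and SERPINB8 (ENSG00000166401, chr18:63969925-64019779) are on chromosome 18. The matrix serpins are scattered: SERPINE2 (ENSG00000135919) is at chr2:223975112-224039319, SERPINF1 (ENSG00000132386) at chr17:1761959-1777574 and SERPINH1 (ENSG00000149257) at chr11:75562056-75572783.

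SERPINB3 and SERPINB4, the squamous cell carcinoma antigens, are products of a gene duplication, and their promoters show how alike the copies are. The 250 bases before each RefSeq start (GRCh38.p14, both on the minus strand, 5′ to 3′) are printed with the bases that differ between the copies in capitals. The SERPINB3 stretch is chr18:63661894-63662143 and the SERPINB4 stretch chr18:63644257-63644506. By the GENCODE 29 loci above, both genes begin within these stretches, so the downstream part of each stretch lies inside the annotated gene.
SERPINB3: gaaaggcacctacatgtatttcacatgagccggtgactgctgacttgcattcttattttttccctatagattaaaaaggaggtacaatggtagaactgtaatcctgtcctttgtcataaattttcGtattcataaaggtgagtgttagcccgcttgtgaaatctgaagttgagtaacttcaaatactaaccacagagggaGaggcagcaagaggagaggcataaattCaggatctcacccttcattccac
SERPINB4: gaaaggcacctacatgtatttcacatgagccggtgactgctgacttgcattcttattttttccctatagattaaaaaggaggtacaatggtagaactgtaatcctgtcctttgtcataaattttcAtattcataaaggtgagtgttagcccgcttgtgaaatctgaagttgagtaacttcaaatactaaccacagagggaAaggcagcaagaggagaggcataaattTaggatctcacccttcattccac
The stretches differ at 3 of 250 bases (98.8% identical without gaps). Other pairs of member promoters, compared in the same way, were 19.6% to 36.0% identical. The transcripts are also alike. Of the distinct 50-base windows in the annotated SERPINB3 transcripts, 23.3% occur unchanged in SERPINB4, and of the 100-base windows 3.21%, while none of the 1774 windows of 150 bases, the read length, does.

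A further pair of promoters is printed, though promoter activity was not measured here. SERPINB9 was the more abundant of the members whose expression passed the threshold for a coating difference, and SERPINH1, the most abundant member, is a classical heat-inducible gene. The SERPINB9 stretch (chr6:2903310-2903559, minus strand) has a TATAAA match in capitals, and the SERPINH1 stretch (chr11:75562003-75562252, plus strand) has a match to the heat shock element in capitals, that is TTC, GAA and TTC with 2 free bases between the units.
SERPINB9: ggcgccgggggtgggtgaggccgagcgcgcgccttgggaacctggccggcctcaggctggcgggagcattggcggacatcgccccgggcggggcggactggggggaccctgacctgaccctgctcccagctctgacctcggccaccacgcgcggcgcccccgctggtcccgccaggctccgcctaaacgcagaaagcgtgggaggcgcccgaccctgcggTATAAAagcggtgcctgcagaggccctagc
SERPINH1: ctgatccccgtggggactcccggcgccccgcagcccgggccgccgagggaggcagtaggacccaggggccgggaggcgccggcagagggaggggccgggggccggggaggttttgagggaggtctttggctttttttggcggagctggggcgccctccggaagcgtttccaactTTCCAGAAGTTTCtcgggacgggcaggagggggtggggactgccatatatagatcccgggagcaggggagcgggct
Both strands of the 250 bases were searched in 35116 RefSeq promoters of 27305 genes. A gene was counted if any of its promoters had a match. The 3-unit heat shock element, the sequence bound by heat shock factor 1, was present in 0.441% of the promoters and 0.557% of the genes. Among the 8 members with a promoter entry it was found in SERPINH1 alone, where it began 76 bases before the start. TATAAA, the core of the TATA box, was present in 10.7% of the promoters. Among the members it was found in SERPINB9, beginning 30 bases before the start, and in SERPINB8, where matches on the 2 strands overlap at 140 and 142 bases. These starts are those of RefSeq. By the GENCODE 29 loci, the SERPINH1 and SERPINB8 matches lie inside the annotated genes, and the SERPINB9 match lies outside. The octamer ATGCAAAT, the sequence bound by POU factors such as POU5F1, was present in 1.63% of the promoters and 2.03% of the genes, and in no member's stretch.

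Levels were compared between genes in TPM, the authors' values corrected for transcript length. SERPINH1 was highest, between 94.6 and 102.6 TPM in the 6 libraries, and SERPINB9, the inhibitor of granzyme B, followed at 35.2 to 56.5 TPM. SERPINF1, also called PEDF, was at 19.3 to 29.2 TPM, and SERPINE2, protease nexin-1, at 14.5 to 19.1 TPM. SERPINB1, which inhibits neutrophil elastase and cathepsin G, was at 11.1 to 15.5 TPM, and SERPINB6, a cathepsin G inhibitor, at 9.79 to 12.6 TPM. The sum of SERPINB3 and SERPINB4 was at 0.590 to 2.14 TPM. SERPINB8, which inhibits furin, was at 0.040 to 0.190 TPM. In this order SERPINE2 and SERPINB1 overlapped over the libraries, as did SERPINB1 and SERPINB6, and the other neighbours did not.

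**Figure D1:**
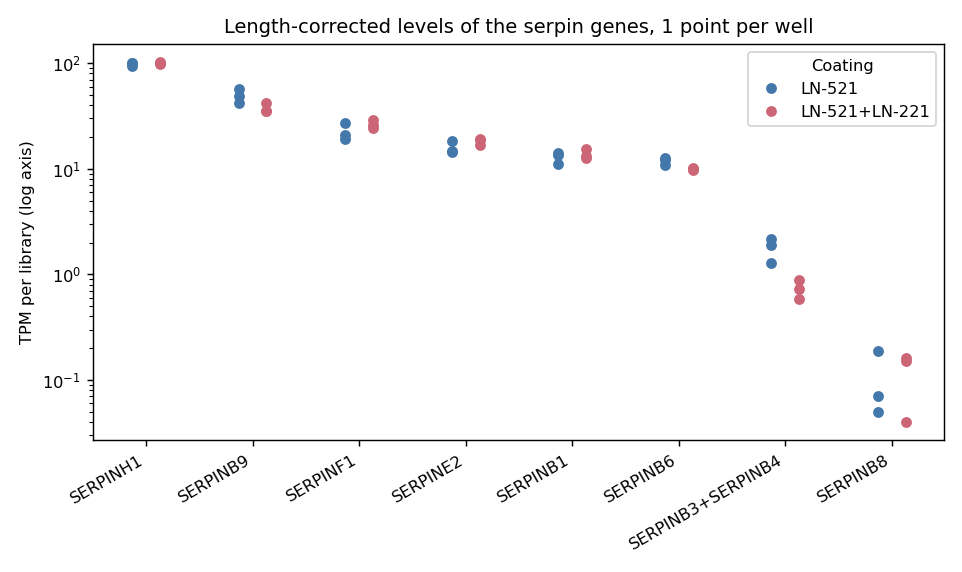
TPM of each serpin gene (log axis) in each of 6 wells, in order of mean level. SERPINH1 lies near 99.3 TPM, 6 members lie above 9 TPM in every well, and the sum of SERPINB3 and SERPINB4 and SERPINB8 lie below 2.2 TPM.

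The coatings were compared on CPM, the counts relative to library sizes after TMM scaling (trimmed mean of M-values), which are not corrected for gene length. A gene was called where the adjusted p of edgeR's quasi-likelihood test over all 17607 genes tested was under 0.05. Of the 8 features, 7 passed the filter on low counts, and 2 of these 7 were called, both lower on LN-521+LN-221: the sum of SERPINB3 and SERPINB4, and SERPINB9. Among all genes tested 2.53% were called, with 1.13% lower and 1.40% higher. Higher genes made up 55.3% of the calls, and 80.6% of the 62 calls made with limma on log2(TPM + 1). The CPM of the coatings did not overlap for 5 of the 7, against 19.9% of all genes tested. As the members were picked on this contrast, nothing is read from these counts.

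SERPINB3 and SERPINB4 are best known from squamous epithelium, where SERPINB3 inhibits the cysteine cathepsins L, K and S and SERPINB4 inhibits cathepsin G. Their summed estimated counts were 90, 73 and 88 in the LN-521 wells and 28, 35 and 25 in the LN-521+LN-221 wells. In CPM these were 3.92, 2.74 and 3.53 against 1.35, 1.57 and 1.06. Every well with laminin-221 was below every well without it. The means were 3.40 ± 0.599 and 1.32 ± 0.258 CPM (SD, n = 3 each). The log2 fold change was -1.36 ± 0.22 (SE; 95% interval -1.82 to -0.89), or 2.56-fold lower. With limma on log2(TPM + 1) it was not called (-0.67). Mean TPM was 1.77 on LN-521 and 0.73 on the mixed coating, so the added 1 shrinks this difference. With log2(TPM + 0.1) it was -1.16, also not called. Of all genes called, 3 had a log2 fold change at or below this value, the sum included.

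Taken apart, SERPINB3 had 32.4, 29 and 28 estimated counts on LN-521 against 6, 15.4 and 4 on the mixed coating, and SERPINB4 had 57.6, 44 and 60 against 22, 19.6 and 21. The non-whole values show that some reads had been divided between genes. SERPINB3 took 31.8% to 39.7% of the summed counts on LN-521. On LN-521+LN-221 the shares were 21.4% (95% Wilson interval 10.2% to 39.5%), 42.9% (27.98% to 59.1%) and 16.0% (6.40% to 34.7%). These intervals cover counting error only, and each overlaps the range of the LN-521 wells, so a shift of the balance between the copies was not detectable at this depth. SERPINB3 shares exon sequence with SERPINB11 on the other strand, which had 0 to 2 counts per library.

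**Figure D2:**
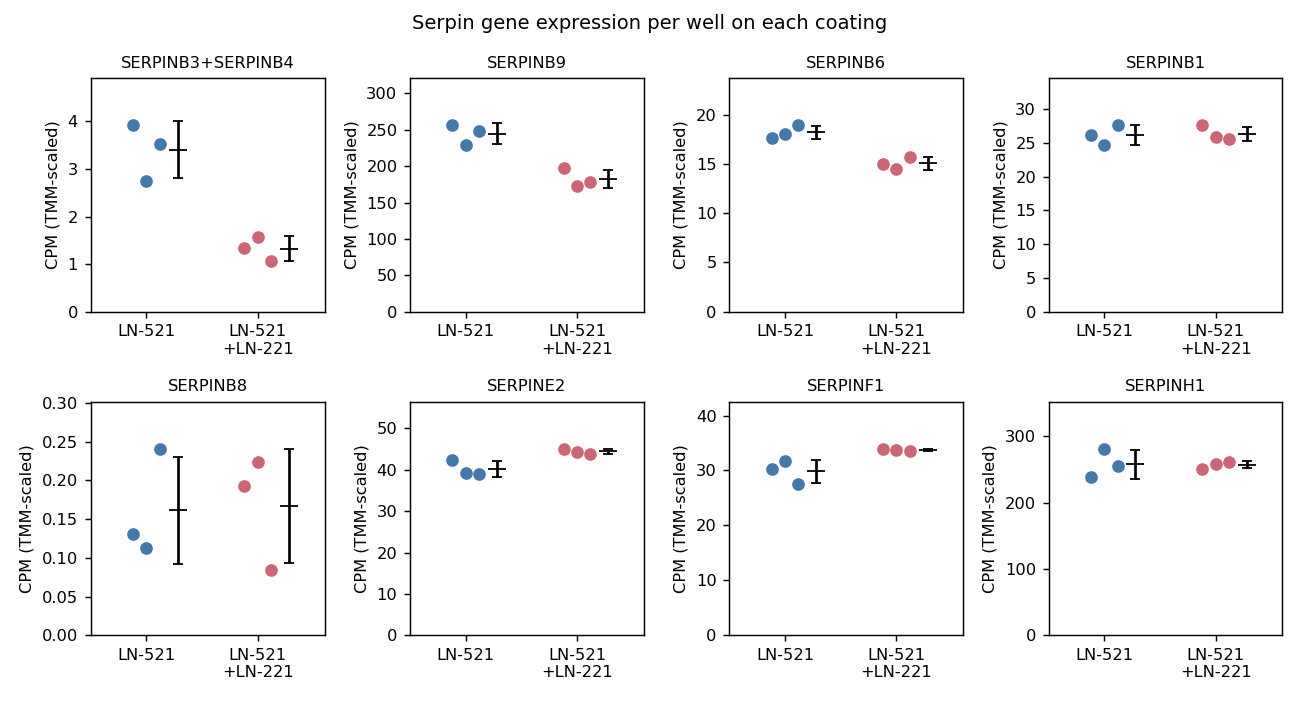
CPM of the 8 serpin features in the 3 wells of each coating (points), with the mean and SD beside them; each axis starts at 0. The sum of SERPINB3 and SERPINB4 (mean 3.40 against 1.32 CPM) and SERPINB9 (244.6 against 182.8 CPM) separate by coating, and SERPINB1 and SERPINH1 overlap.

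Markers of squamous or surface ectoderm epithelium were low on both coatings. Of 7 such genes 1, KRT15, passed the filter, SPRR1B was at 0 in all libraries, and KRT5, KRT14 and TP63 had at most 7, 6 and 8 counts. Their summed expression was 0.790 to 1.57 CPM on LN-521 and 0.507 to 1.03 CPM on the mixed coating, ranges that overlap. The part of these markers in the lower SERPINB3 and SERPINB4 was not tested. In bulk RNA fewer cells that express a gene and less of its RNA per cell cannot be told apart.

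SERPINB9 protects cytotoxic lymphocytes and other cells from granzyme B. Its counts were 5890, 6081 and 6195 without and 4092, 3852 and 4228 with laminin-221. In CPM the LN-521 wells were at 256.6, 228.6 and 248.6 and the LN-521+LN-221 wells at 197.1, 172.7 and 178.6, with no overlap. The means were 244.6 ± 14.4 and 182.8 ± 12.7 CPM (SD, n = 3 each). The log2 fold change was -0.42 ± 0.06 (SE; 95% interval -0.55 to -0.29), or 1.34-fold lower. With limma on log2(TPM + 1) it was not called either (-0.37). The gene's usual target GZMB did not pass the filter. None of the 6 leukocyte markers passed it either (at most 13 counts), and their sum was 0.564 to 0.763 CPM on LN-521 and 0.380 to 0.770 CPM on the mixed coating.

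SERPINB9 lies between SERPINB1 and SERPINB6 on chromosome 6, and neither of these neighbours was called. SERPINB6 was at 17.6, 18.05 and 18.9 CPM on LN-521 and 15.0, 14.4 and 15.7 CPM on the mixed coating. The wells did not overlap, and the log2 fold change was -0.27 ± 0.09 (SE; 95% interval -0.46 to -0.09), which was not called. A correction for transcript GC content, added after the data were seen, brought it past the threshold (-0.29). SERPINB1 was at 26.2, 24.7 and 27.7 CPM against 27.6, 25.8 and 25.6 CPM, with overlapping wells and a log2 fold change of 0.0094 ± 0.078 (SE; 95% interval -0.16 to 0.17).

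Ratios of estimated counts within a library need no scaling between libraries. SERPINB9 had 9.80, 9.27 and 8.99 counts for each count of SERPINB1 on LN-521, against 7.14, 6.69 and 6.98 on the mixed coating. The mean ratio was 9.35 ± 0.411 and 6.94 ± 0.230 (SD, n = 3 each), so the lower SERPINB9 on the mixed coating was also seen relative to its neighbour. The SERPINB6 to SERPINB1 ratio was 0.696 ± 0.0313 and 0.572 ± 0.0366 (SD, n = 3 each). These ratios restate the same contrast and were not tested.

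The genes around the chromosome 6 cluster were not used to pick the members. Of the 10 nearest genes tested, 5 on each side, 0 were called by edgeR and 0 by DESeq2, while 1 had an unadjusted p under 0.05, against 14.5% of all genes tested. That gene, NQO2, a quinone reductase beyond SERPINB6, was at 38.1 ± 1.19 CPM without and 32.3 ± 1.26 CPM with laminin-221 (SD, n = 3 each). Its log2 fold change was -0.23 ± 0.07 (SE; edgeR adjusted p = 0.0970). Of the flanking genes, 8 had negative log2 fold changes, with a median of -0.12 over the 10 against -0.0012 for all genes tested. SERPINB9P1, a non-coding RNA gene between SERPINB1 and SERPINB9, had 5 to 15 counts per library and was not called (-0.53 ± 0.43, SE; edgeR adjusted p = 0.629), and none of the 50-base windows of SERPINB9 occurs in it.

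**Figure D3:**
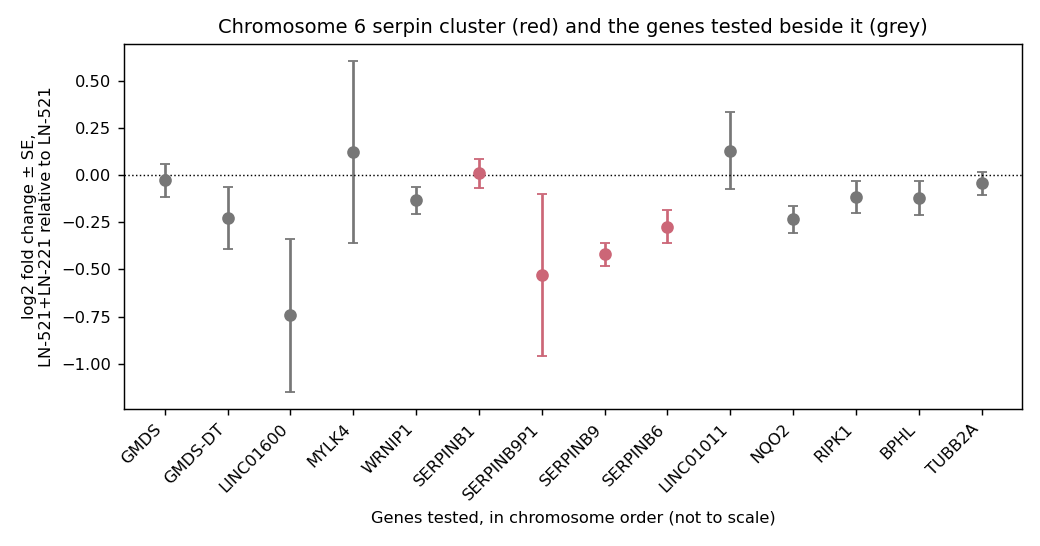
Log2 fold change of the mixed coating over LN-521 (point, bar ± SE) for the genes tested in and beside the chromosome 6 serpin cluster, in chromosome order. SERPINB9 is at -0.42, SERPINB6 at -0.27 and SERPINB1 at 0.0094, and no flanking gene was called.

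SERPINB8, the third member on chromosome 18, had 3, 3 and 5.59 estimated counts on LN-521 against 4, 5 and 2 on the mixed coating. It did not pass the filter. Without a filter its log2 fold change was 0.025 ± 0.84 (SE), and a difference was not detectable at this depth. Its exons overlap HMSD on the same strand, which had 24 to 41.4 counts per library and was not called. Beyond the cluster, 1 of the 6 nearest genes tested, 3 on each side, was called, against 2.53% of all genes tested. The 3 on the SERPINB8 side are distant, as the first starts at 65750252 and SERPINB8 ends at 64019779. CDH7, a cadherin gene, rose from 4.21 ± 0.931 on LN-521 to 6.71 ± 0.604 CPM on the mixed coating (SD, n = 3 each). The log2 fold change was 0.68 ± 0.16 (SE), with an adjusted p of 0.0295 in edgeR. It lost the call without LN-521 replicate 3 (0.52) and without replicate 1 (0.74), 2 (0.62) or 3 (0.67) of LN-521+LN-221. It was also not called in any of the 3 limma settings on TPM (0.66, 1.09 and 0.66).

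The secreted inhibitor SERPINE2 was at 42.4, 39.2 and 38.8 CPM on LN-521 and at 45.03, 44.4 and 43.8 CPM on the mixed coating. SERPINF1, which binds collagen and acts on neurons and blood vessels, was at 30.3, 31.7 and 27.6 CPM against 33.9, 33.8 and 33.6 CPM. For both genes every well of the mixed coating was above every LN-521 well. The log2 fold changes were small, 0.15 ± 0.07 for SERPINE2 (SE; 95% interval 0.0042 to 0.29) and 0.18 ± 0.07 for SERPINF1 (SE; 95% interval 0.020 to 0.33), and neither was called. The LN-521+LN-221 wells lay close together for SERPINF1, with a coefficient of variation of 0.554%, against 6.90% on LN-521.

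SERPINH1 binds procollagen in the endoplasmic reticulum and releases it in the Golgi. It was at 237.7, 280.8 and 254.7 CPM on LN-521 and at 250.8, 257.6 and 261.1 CPM on the mixed coating. The LN-521 wells spanned the others. The log2 fold change was -0.0071 ± 0.060 (SE; 95% interval -0.13 to 0.12).

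**Figure D4:**
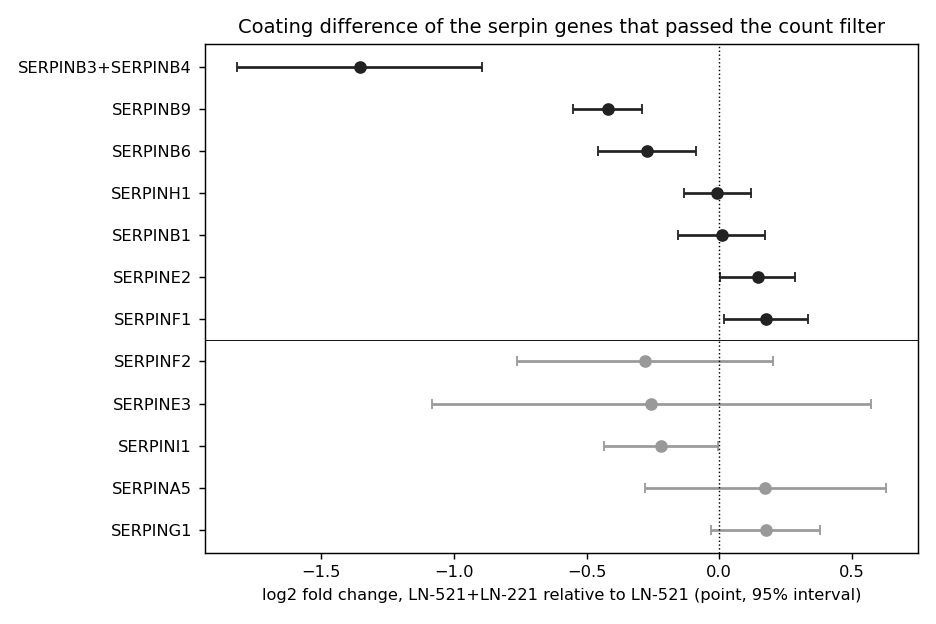
Log2 fold change of the mixed coating over LN-521 (point, bar its 95% interval) for the 7 serpin features described here (black) and 5 other serpin genes that passed the count filter (grey). The sum of SERPINB3 and SERPINB4 lies at -1.36 and SERPINB9 at -0.42, and the grey intervals include 0 except that of SERPINI1.

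Other genes of the family were taken from a list of 25 further serpins. Of these, 5 passed the filter, 14 had counts but too few, and 6 (SERPINB10, SERPINB12, SERPINA6, SERPINA9, SERPINA12 and SERPIND1) had 0 counts in every library, which allows up to 0.112 to 0.146 CPM depending on the library. No other clade B serpin passed; the highest count among those 7 genes was 9. By edgeR 0 of the 5 were called, as by DESeq2, and 1 had an unadjusted p under 0.05, against 2.53% and 14.5% of all genes tested. With so few genes nothing is read from these counts. The gene was SERPINI1, neuroserpin, an inhibitor of tissue plasminogen activator, at 14.8 ± 0.983 CPM without and 12.7 ± 1.33 CPM with laminin-221 (SD, n = 3 each; log2 fold change -0.22 ± 0.10, SE; edgeR adjusted p = 0.334).

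SERPING1, the C1 inhibitor of complement, was the highest of the 5 in TPM (8.41 ± 1.45 on LN-521, SD, n = 3), and its log2 fold change was 0.17 ± 0.10 (SE; edgeR adjusted p = 0.445). SERPINF2, which inhibits plasmin and belongs to the clade of SERPINF1, had 34 to 84 counts per library (-0.28 ± 0.23, SE). SERPINA5, the protein C inhibitor, had 44 to 80 counts (0.17 ± 0.22, SE) and SERPINE3 7 to 14 counts (-0.26 ± 0.39, SE). None of these 4 genes was called. Leaving out 1 library moved the small differences widely, between 0.10 and 0.24 for SERPING1, -0.47 and -0.056 for SERPINF2, 0.017 and 0.34 for SERPINA5 and -0.38 and -0.14 for SERPINE3, and between -0.28 and -0.14 for SERPINI1.

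Genes that act with the serpins were then read from lists, of which 59 of 67 genes passed the filter. In all 1 was called, against 2.53% of all genes tested, and 9 had an unadjusted p under 0.05, as had 14.5% of all genes tested. The proteases that clade B serpins meet had 7 of 11 genes tested and 0 called by edgeR or DESeq2, with 1 at an unadjusted p under 0.05, FURIN (-0.20 ± 0.08, SE; edgeR adjusted p = 0.239). Their median log2 fold change was -0.18, with values from -0.33 to 0.046. CTSV, a lysosomal cysteine protease, was the most abundant, at 164.6 ± 3.62 CPM without and 170.0 ± 6.24 CPM with laminin-221 (SD, n = 3 each; edgeR adjusted p = 0.761).

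Among plasminogen activators, thrombin, their receptors and membrane serine proteases 9 of 11 genes were tested and 0 called by edgeR or DESeq2, with a median of -0.011. The gene with an unadjusted p under 0.05 was HTRA1, a secreted serine protease (-0.31 ± 0.10, SE; edgeR adjusted p = 0.125), which was called without LN-521 replicate 2. LRP1, the endocytic receptor that clears serpin and protease complexes including those of SERPINE2, had the highest TPM when both coatings are averaged (27.92, against 27.88 for PRSS8, which was above it on LN-521 alone). It was at 416.3 ± 41.8 and 459.2 ± 50.3 CPM (SD, n = 3 each; 0.14 ± 0.08, SE; edgeR adjusted p = 0.5002). It passed the threshold with the GC correction (0.20). Leaving out 1 library gave 0.071 without LN-521 replicate 1, 0.056 without LN-521+LN-221 replicate 3, and 0.22 without LN-521 replicate 2 or LN-521+LN-221 replicate 1. Of 6 proteins described as receptors of SERPINF1, all were tested, 0 were called by edgeR or DESeq2 and 0 had an unadjusted p under 0.05. RPSA, a ribosomal protein gene whose product also serves as a laminin receptor, was the most abundant of these in TPM, at 1597 ± 128.2 and 1598 ± 50.3 CPM (SD, n = 3 each).

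The genes that fold and modify collagen alongside SERPINH1 had 19 of 20 members tested. By edgeR or DESeq2 0 were called, and 3 had an unadjusted p under 0.05, all with lower values on LN-521+LN-221. These were the prolyl hydroxylase genes P4HA2 (-0.19 ± 0.07, SE) and P3H1 (-0.18 ± 0.08, SE) and the cyclophilin gene PPIB (-0.11 ± 0.05, SE; edgeR adjusted p = 0.338). Negative log2 fold changes were measured for 16 of the 19, with a median of -0.10 against -0.0012 for all genes tested, and a range of -0.19 to 0.15. SERPINH1 itself was at -0.0071. Leaving out 1 library changed calls in this list: P3H1, FKBP10 and COLGALT1 passed the threshold without LN-521 replicate 1, and PLOD2 without LN-521 replicate 2.

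Of 7 collagen genes whose products SERPINH1 chaperones, 6 were tested and 1 was called. COL5A2, a chain of the fibril-regulating collagen V, was at 57.9 ± 2.13 CPM without and 44.7 ± 2.39 CPM with laminin-221 (SD, n = 3 each). It fell by 0.37 ± 0.07 on the log2 scale (SE), with an adjusted p of 0.00359 in edgeR. It lost the call without LN-521+LN-221 replicate 2 (-0.36) and in the 3 limma settings on TPM (-0.32, -0.37 and -0.32). COL1A1, the main chain of collagen I, was at 168.6 ± 10.3 and 146.6 ± 1.45 CPM (SD, n = 3 each; -0.20 ± 0.06, SE; edgeR adjusted p = 0.0724), and was called by DESeq2, with the replicate block (also with GC correction added), without a count filter and without LN-521 replicate 1. In TPM it was at 39.8 ± 2.44 on LN-521 and 40.2 ± 3.42 on the mixed coating (SD, n = 3 each). It was not called in the 3 limma settings. Its partner chain COL1A2, the most abundant of the list in TPM, was at 196.6 ± 23.2 and 214.3 ± 5.75 CPM (SD, n = 3 each; 0.12 ± 0.07, SE; edgeR adjusted p = 0.450), and passed without LN-521 replicate 2 (0.22) but was at 0.041 without LN-521 replicate 3. COL3A1 had at most 1 count.

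Heat shock genes were included because SERPINH1 is induced by heat shock factor 1. All 12 were tested and 0 were called by edgeR or DESeq2, and their median log2 fold change was 0.019. Both with an unadjusted p under 0.05 were higher on the mixed coating, HSPA1B (0.18 ± 0.08, SE; edgeR adjusted p = 0.291), which encodes an inducible HSP70, and HSP90AA1 (0.15 ± 0.07, SE; edgeR adjusted p = 0.292). HSPA1B passed with the GC correction and without LN-521 replicate 2. HSPA8, the constitutive HSC70 gene, was the most abundant, at 2082 ± 80.7 and 2114 ± 42.2 CPM (SD, n = 3 each). Of the genes whose promoter holds the 3-unit element printed above, 56 were tested, SERPINH1 included. Their median log2 fold change was -0.0054, 0 were called by edgeR or DESeq2, and 12 had an unadjusted p under 0.05, against 14.5% of all genes tested. Of 1038 genes tested with TATAAA in the promoter, 25 were called higher and 20 lower by edgeR (4.34%), and 50 by DESeq2. Of 243 with the octamer, 5 were called higher and 4 lower by edgeR (3.70%), and 11 by DESeq2. Among all genes, edgeR called 2.53% of those tested. DESeq2 called 501 of 36260, a set that includes genes under the edgeR filter. Both totals also include genes with no promoter entry, which could not hold a motif here. These shares are a description of genes that hold the letters, and their differences from the share of all genes were not tested.

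**Figure D5:**
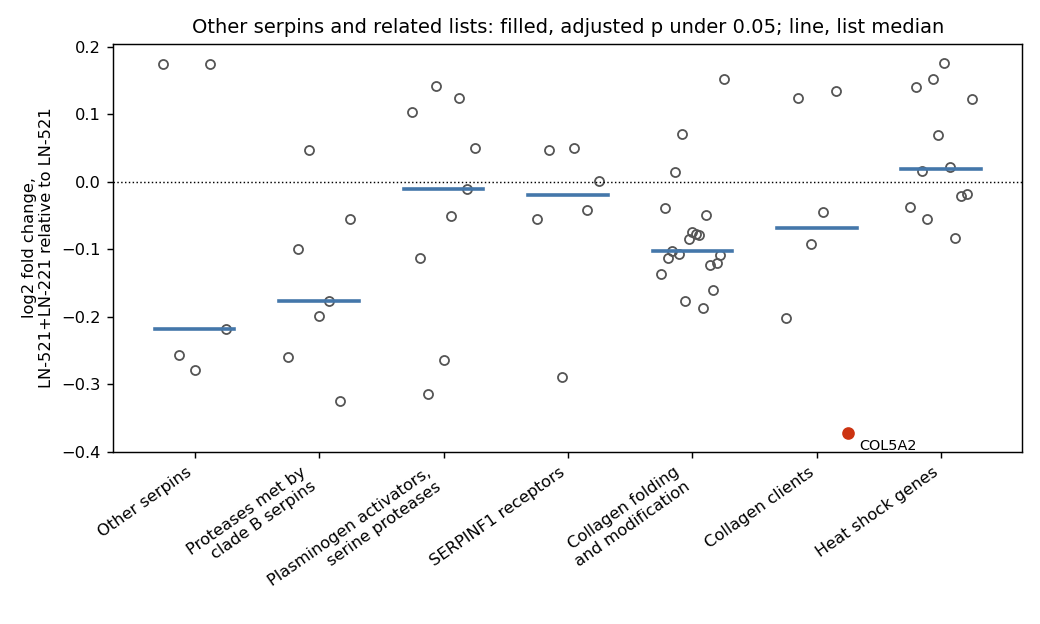
Log2 fold change of the mixed coating over LN-521 for each gene tested (points) in the list of other serpins and in 6 lists of genes that act with serpins, with list medians (lines). COL5A2, at -0.37, is the gene with an adjusted p under 0.05 (filled).

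Stem cell identity on both coatings was checked with 8 pluripotency markers, all of which passed the filter, and their summed expression was 8672 to 8682 CPM on LN-521 and 8617 to 8739 CPM on the mixed coating. Of them 4 were called between the coatings, against 2.53% of all genes tested, and they went in opposite directions, so the near-equal sums do not show equal levels of each marker. The log2 fold change was -0.36 ± 0.06 for POU5F1, -0.73 ± 0.09 for NANOG, -0.65 ± 0.06 for TDGF1 and 0.23 ± 0.05 for LIN28A (SE). Of 7 fibroblast or mesenchyme markers 3 were tested, and their summed expression was 247.7 to 278.3 CPM on LN-521 and 216.1 to 222.5 CPM on the mixed coating. This sum is made mostly of COL1A1 and THY1, a gene that pluripotent stem cells also express and which was called lower (84.1 ± 10.8 against 64.6 ± 2.97 CPM, SD, n = 3 each; edgeR adjusted p = 0.0146). LUM was at 0 and DCN had at most 9 counts. Trophoblast or amnion markers (3 of 7 tested) summed to 22.8 to 27.2 and 22.4 to 26.6 CPM, and endoderm markers (2 of 6 tested) to 2.29 to 3.44 and 1.90 to 2.60 CPM. The part of these markers in the serpin differences was not tested.

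The genes whose pattern over the 6 libraries was most like that of a member were found from the root mean square difference of centred log2 CPM, among 14645 genes with a symbol and a mean of at least 1 CPM. For the sum of SERPINB3 and SERPINB4, the member with the most negative log2 fold change, they were the metallothionein gene MT1E (difference 0.263), the natural killer receptor gene NCR1 (0.265) and the neuronal pentraxin gene NPTX1 (0.265), against a median of 0.696 over all genes compared. MT1E was at 37.1 ± 4.98 CPM without and 19.3 ± 1.19 CPM with laminin-221, and NPTX1 at 307.6 ± 17.7 and 162.5 ± 12.3 CPM (SD, n = 3 each). For SERPINF1, the member with the most positive log2 fold change, they were DUSP22 (0.0116), ZNF420 (0.0247) and UVRAG (0.0250), against a median of 0.152. DUSP22, a phosphatase gene, was at 43.2 ± 3.40 and 48.3 ± 0.145 CPM (SD, n = 3 each). These genes were chosen for their likeness, so their values are a description.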

How the data were processed

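RNA of 6 libraries, 3 wells of H1 cells on each coating, was made from 700 ng of total RNA with a strand-marking kit for total RNA and read as pairs of 150 bases, per the labels' protocols. Per the submitters' processing notes, cutadapt, STAR 2.5.2b, RSEM 1.2.31 and hg38 were used, with no role given. The gene annotation and the use of strand in counting are not given in the sources used here. The authors deposited a table of estimated counts, in which 6.08% to 6.67% of the values per library are not whole, and a table of TPM, in which 7SL RNAs take 30.1% to 37.3% of the total and which therefore depends on that share. The deposited sample sheet lists 1 sequencing batch.

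Symbols were looked up by gene ID. Loci came from GENCODE 29 and promoters from RefSeq (GRCh38.p14); SERPINF1 had no promoter entry. Estimated counts were rounded, SERPINB3 and SERPINB4 were summed, genes were kept by filterByExpr (minimum count 10) and libraries were scaled by TMM. Differences between coatings were tested by quasi-likelihood in edgeR 4.0.16 under R 4.3.3, with a robust fit and no block, and p-values were adjusted by Benjamini-Hochberg over all 17607 genes. The SE is the absolute log2 fold change divided by the square root of F. Alternatives were RLE or no scaling, other filters, DESeq2 (1.42.0), limma (3.58.1) on log2(TPM + 1) or log2(TPM + 0.1), a replicate block, separate SERPINB3 and SERPINB4 values, leaving out each library, and, added after the data were seen, a GC correction (lowess span 0.3). The second principal component, with 21.8% of the variance, set LN-521 replicate 1 apart.

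The members and lists were chosen with earlier results of these data known. 1 gene is not reported here. The genes named are the members, the other serpins tested, from each list those called and the most abundant, and the genes most like a member. Genes named for an unadjusted p or for a call with 1 library left out (FKBP10, COLGALT1 and PLOD2), PRSS8, COL1A1, COL3A1, NQO2, SERPINB9P1 and marker genes were chosen after their values were seen, and flanking genes by position. Also named were serpins without counts, SERPINB11 and HMSD for exon overlap, and GZMB as the target of SERPINB9. The scripts were tested on simulated counts.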

Additional observations from a re-analysis of the deposited data

How the results depend on the processing

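The lower expression of the sum of SERPINB3 and SERPINB4 and of SERPINB9 kept its direction and its call in the settings run on counts (for the sum, those in which the genes were summed), and leaving out each library gave -1.497 to -1.21 and -0.48 to -0.38. With limma on TPM both kept the direction and lost the call: with log2(TPM + 1) they were at -0.67 and -0.37, with log2(TPM + 0.1) at -1.16 and -0.38, and without a TPM filter at -0.67 and -0.37, so 0 members were called in these 3 settings. SERPINB6 was called once GC content was corrected for (-0.29), also when a replicate block was added (-0.29). The differences of SERPINB1, SERPINH1 and RPSA were near 0 and changed sign. SERPINB1 was -0.0041 without a count filter and -0.0039 with the GC correction, with or without the block. SERPINH1 was 0.041, 0.042 and 0.041 in the 3 TPM settings and 0.031 with the GC correction, with or without the block. RPSA was -0.0043 with library size alone, -0.013 without a filter, -0.0023 with DESeq2, -0.017 with the GC correction and -0.012 with both. Leaving out each library gave -0.030 to 0.051 for SERPINB1, -0.062 to 0.061 for SERPINH1, -0.054 to 0.065 for RPSA, -0.31 to -0.24 for SERPINB6, 0.12 to 0.19 for SERPINE2 and 0.12 to 0.22 for SERPINF1.

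Over all genes, 445 were called, 246 higher and 199 lower. There were 737 without a filter (335 higher, 402 lower), 62, 61 and 1 in the TPM settings, 909 with the GC correction and 961 with the correction and the block. With the replicate block alone there were 645, and 2 members, as without it. The labels number the wells and state no shared batch. Deviations of same-numbered wells from the coating means correlated at 0.047, -0.022 and 0.0089, against a mean of -0.0057 for other numbers. These values cannot show whether same-numbered wells were handled together. Leaving out each library gave 196 to 1180 genes, and 2 members in all 6 fits: without LN-521 replicates 1, 2 and 3 there were 1180, 635 and 202 genes, and without LN-521+LN-221 replicates 1, 2 and 3 290, 198 and 196. The share of higher calls was 55.3%, and 80.6% and 77.0% with log2(TPM + 1) and log2(TPM + 0.1). Partner genes called were 1 in the main test, 2 without a filter, with DESeq2 and with the block, 0 in the TPM settings, 3 with the GC correction and 4 with both, and 0 to 5 with a library left out, 5 without LN-521 replicate 1 and also without replicate 2, and 0 without LN-521+LN-221 replicate 2. The cause was not tested. At the depth of these libraries the comparison of SERPINB8 without a filter was imprecise (0.025 ± 0.84, SE).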
